A study of Mus musculus with 78 samples.

Results

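Glucocorticoid-induced genes are genes whose transcription rises when the adrenal hormone corticosterone binds its receptor, and 9 of them were followed in the lungs of sleeping and sleep-deprived mice. They are Fkbp5, Tsc22d3, Sgk1, Zbtb16, Klf9, Dusp1, Cdkn1a, Mt1 and Mt2, chosen by name from 18820 genes that have a probe set with a single gene symbol. All 9 were on the array, and where a gene has more than 1 probe set the one with the higher mean over the 78 arrays stands for it. Lungs came from male C57BL/6J mice of about 10 weeks, kept in 12 h of light and 12 h of dark and given food only in the dark for 14 days beforehand. Baseline mice (9) were killed at lights on. Sleep-deprived mice (SD) were kept awake by gentle handling from lights on and killed after 3, 6, 9 or 12 h (9, 9, 9 and 8 mice), and undisturbed mice with spontaneous sleep (SS) were killed at the same hours (9, 7, 9 and 9 mice). All mice were of a single strain and sex, each mouse gave 1 array, and sleep-deprived and sleeping mice of the same hour shared their clock time.

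The glucocorticoid receptor, encoded by Nr3c1, waits in the cytoplasm in a complex with Hsp90 and other chaperones. Corticosterone releases it to the nucleus, where it binds glucocorticoid response elements in DNA and switches target genes on or off. In mice the hormone is low at the start of the light phase and climbs towards lights off, and handling or stress raises it at any hour. In the lung the hormone restrains inflammation and drives maturation of the epithelium. Corticosterone itself was not analysed here.

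Levels are log2 intensities, so a difference of 1 is a 2-fold change, and levels of different probe sets cannot be set against each other. The numbers in the labels put 15 arrays at places that belong to another condition, and those 15 of 15 were nearest to the condition of their place over 200 probe sets that held no member. The SD mouse with array 81, at 12 h, was nearest to sleeping mice at 6 h. A further 59 of the remaining 62 arrays lay closest to the condition on their label. Conditions were used as labelled. Results are for all 78 arrays unless stated, and many but not all are given again without these 16. Array numbers fall into 4 runs, and baseline mice share runs only with 3 and 6 h mice. The rise from baseline to 9 or 12 h therefore cannot be told apart from a difference between runs, whereas the 2 states at each hour lie in the same runs. Lung epithelial markers were high in every group, with single mice between 11.8 and 12.3 on the mean of the 8 markers.

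Calls below are from limma at an adjusted p under 0.01 over all 35556 probe sets. A share in percent beside a count of members is the share of all probe sets called in that comparison.

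**Figure D1:**
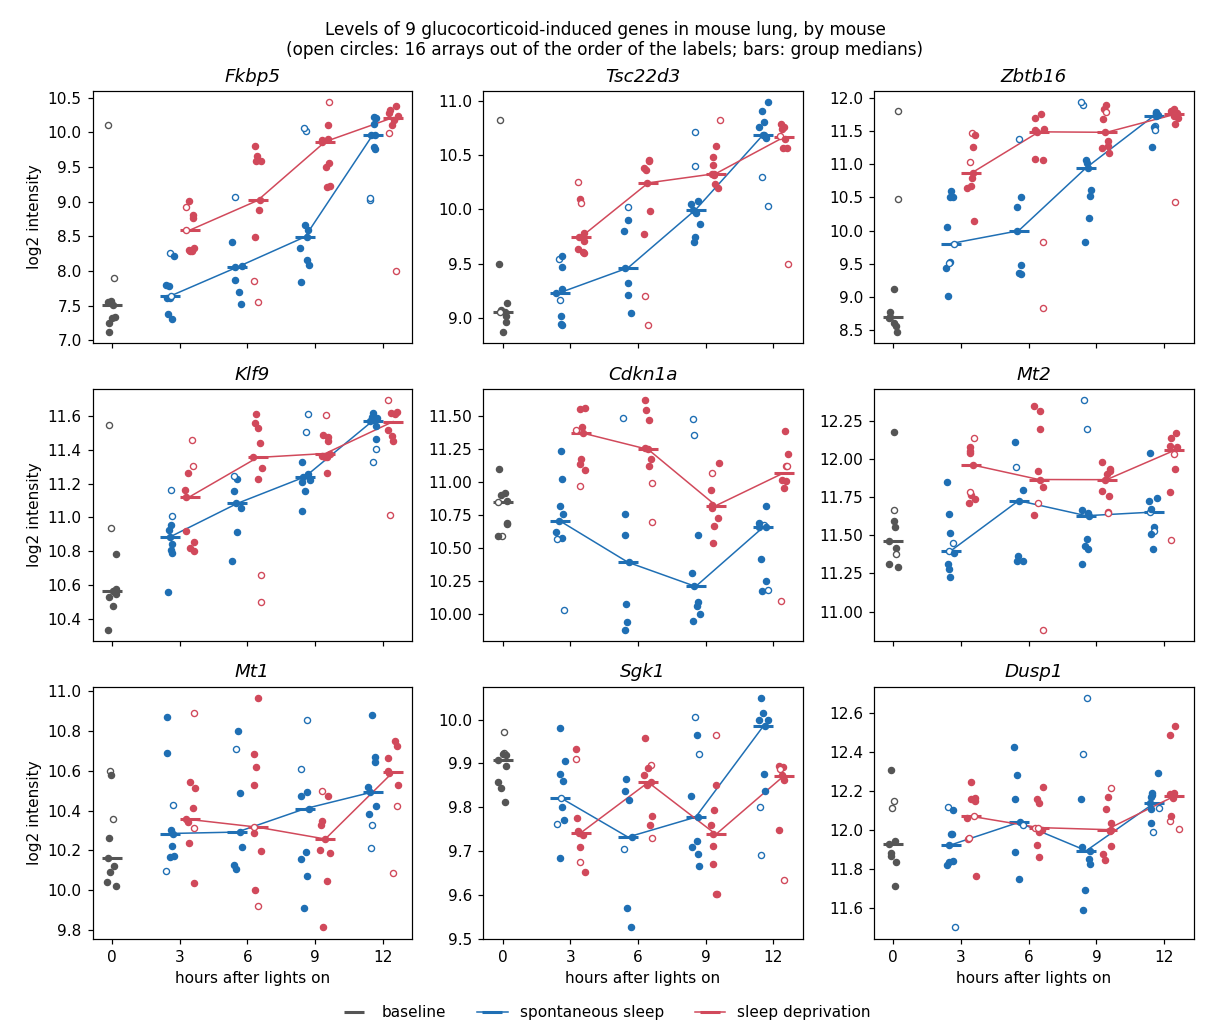
Level of each of the 9 genes (y axis, log2 intensity) against hours after lights on (x axis), with 1 circle per mouse, horizontal bars at group medians and open circles for the 16 arrays out of order. The medians of Fkbp5, Tsc22d3, Zbtb16 and Klf9 climb over the hours in both states, Cdkn1a parts the states, and Sgk1 and Dusp1 stay within a narrow band.

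Fkbp5, Tsc22d3, Zbtb16 and Klf9 were called over the hours both in sleeping and in sleep-deprived mice. Cdkn1a and Mt2 were higher in sleep-deprived mice without a called trend over the hours in the 78 arrays. Sgk1, Dusp1 and Mt1 passed no test of state or hour in the 78 arrays. This sorting did not hold without the 16 arrays. There Cdkn1a was also called over the hours in both states, Sgk1 over those of sleep, and Mt1 and Mt2 over those of deprivation. Over all hours, 2 of 9 members were called between the states, against 5.59% of all probe sets, and 4 of 9 without the 16 arrays, against 8.63%. That comparison had no term for hour or run, and such a term changed the calls. With hour as a factor 5 members were called in the same 78 arrays, adding Fkbp5 (0.73, adjusted p = 0.00014), Zbtb16 (0.64, adjusted p = 0.0013) and Tsc22d3 (0.32, adjusted p = 0.0073), and with 4 runs as a block 4 were called, adding Fkbp5 and Zbtb16. Genes called over the hours and genes called between the states are thus not separate sets. The share of all probe sets called with a term for hour or run was not computed. The median difference of the members (SD minus SS) was 0.28, compared with 0.0046 over all probe sets.

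Fkbp5 encodes a co-chaperone that enters the receptor complex and lowers its affinity for hormone, so that it acts as a brake on its own inducer. In baseline mice its level ran from 7.12 through a median of 7.51 to 10.10. In sleeping mice the lowest, median and highest levels were 7.31, 7.63 and 8.26 at 3 h and 7.52, 8.06 and 9.06 at 6 h. They were 7.84, 8.49 and 10.05 at 9 h and 9.03, 9.96 and 10.22 at 12 h. Sleeping mice at 12 h were all above every sleeping mouse at 3 h.

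In sleep-deprived mice Fkbp5 was high from the first hours studied. The lowest, median and highest levels were 8.29, 8.59 and 9.00 at 3 h, so the groups did not overlap at that hour. At 6 h they were 7.56, 9.02 and 9.80, at 9 h 9.21, 9.86 and 10.43, and at 12 h 7.99, 10.21 and 10.37. The groups overlapped at 6, 9 and 12 h, and the mice that made them overlap at 6 and 9 h were among the 16 arrays.

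Against baseline, Fkbp5 rose by 2.05 in mice that slept 12 h (SE 0.29, adjusted p = 4.1e-07) and by 2.19 after 12 h of deprivation (SE 0.30, adjusted p = 7.4e-07). These are 4.13-fold and 4.58-fold. In the 62 arrays the rises were 2.62 and 2.87. Between the states (SD minus SS) Fkbp5 differed by 0.85, 0.84, 1.05 and 0.15 at 3, 6, 9 and 12 h, with adjusted p of 0.041, 0.22, 0.017 and 0.99, none past 0.01. Leaving out the 16 arrays gave 0.87, 1.35, 1.35 and 0.25, and the first 3 passed (adjusted p = 7.9e-05, 5.9e-08 and 9.9e-09). Ordered by mean, no neighbouring groups of Fkbp5 in the 78 arrays differed by more than the larger of their SDs. The lowest means were those of SS 3 h and baseline, and the highest that of SD 12 h.

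Zbtb16, a zinc finger repressor also known as PLZF and a standard marker of receptor activity, moved most. Baseline mice had a lowest level of 8.48, a median of 8.70 and a highest of 11.80. Sleeping mice had 9.02, 9.81 and 10.60 at 3 h, and 11.27, 11.73 and 11.78 at 12 h. Sleep-deprived mice had 10.15, 10.86 and 11.46 at 3 h, and 10.43, 11.75 and 11.83 at 12 h. The states overlapped at their edges at 3 h, and at 12 h the sleeping mice lay inside the range of the deprived ones. The low end of that range was array 81 alone, among the 16, and the next lowest deprived mouse was at 11.61.

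Zbtb16 passed against baseline in 6 of the 8 later groups, all higher. The change ran from 1.64 (sleep, 9 h) to 2.39 (sleep, 12 h) among those that passed, and was 0.64 and 0.82 after 3 and 6 h of sleep, not past the threshold. After 3 h of deprivation it was already 1.68 (SE 0.31, adjusted p = 0.00045). In the 62 arrays all 8 groups passed, from 1.14 to 3.04. SD minus SS was 1.04, 0.92, 0.64 and -0.05 at the 4 hours, with no call. With the 16 arrays left out it was 0.88, 1.60, 0.89 and 0.08, and the first 3 passed (adjusted p = 0.0013, 2.1e-07 and 0.00090).

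Tsc22d3 encodes GILZ, a leucine zipper protein that carries part of the anti-inflammatory action of glucocorticoids. Its medians were 9.06 at baseline, 9.24, 9.46 and 10.69 after 3, 6 and 12 h of sleep, with single mice at 9 h between 9.70 and 10.71. After 3, 6, 9 and 12 h of deprivation they were 9.74, 10.24, 10.33 and 10.66. SD mice at 3 h lay between 9.60 and 10.26 and SS mice between 8.94 and 9.57, with no overlap. From baseline it rose by 1.37 in SS mice at 12 h (SE 0.18, adjusted p = 4.8e-08) and by 1.25 in SD mice (SE 0.19, adjusted p = 2.3e-06). The state difference was 0.59 at 3 h (SE 0.18, adjusted p = 0.018) and -0.12 at 12 h (SE 0.19), neither past the threshold. In the 62 arrays it passed at 3, 6 and 9 h, with 0.53, 0.78 and 0.45.

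Klf9 encodes a Krüppel-like transcription factor that the receptor induces and that ties hormone signals to the circadian clock. It had the smallest rise of the 4, 0.82 in SS mice at 12 h (SE 0.11, adjusted p = 1.0e-07) and 0.80 in SD mice (SE 0.11, adjusted p = 1.2e-06). Its medians climbed from 10.56 at baseline to 11.57 in SS mice and 11.57 in SD mice at 12 h. The state difference was between -0.02 and 0.20 at the 4 hours and passed at none. In the 62 arrays it passed at 6 h, at 0.40 (SE 0.07, adjusted p = 8.0e-05). Klf9 has a dimmer probe set, at a mean of 6.92 against 11.19, and the mean of both gave -0.05 over all hours in place of 0.11.

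**Figure D2:**
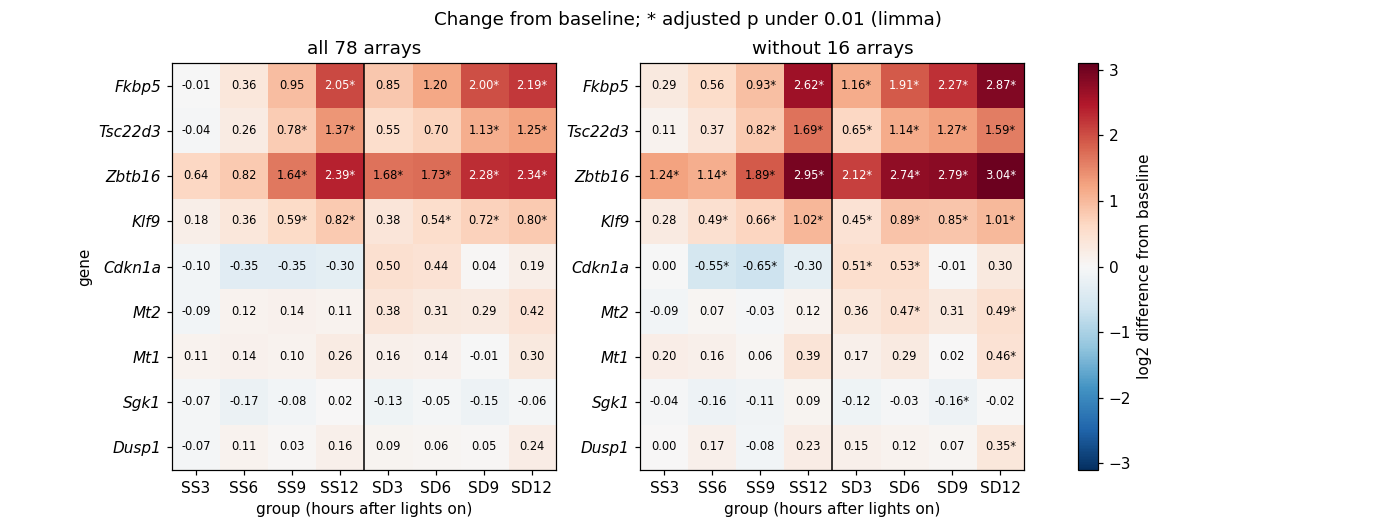
Difference of each group from the baseline mice (colour and number, log2) for the 9 genes (rows) and 8 groups (columns, SS for sleep and SD for deprivation with the hour), for 78 arrays (left) and 62 (right), with an asterisk where the adjusted p was under 0.01. The called cells on the left lie in the rows of Fkbp5, Tsc22d3, Zbtb16 and Klf9, from 0.54 to 2.39.

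In all, 18 of 72 pairs of member and group differed from baseline, all of them higher, against 3.11% of all such pairs of probe set and group. Fkbp5 gave 3, Tsc22d3 4, Zbtb16 6 and Klf9 5. Among the 62 arrays 36 pairs passed, 33 higher and 3 lower, against 4.8%. The lower ones were Cdkn1a after 6 and 9 h of sleep and Sgk1 after 9 h of deprivation.

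The same 4 members changed over the hours in baseline and sleeping mice (limma F test), 4 of 9 against 7.2% of probe sets, and in baseline and sleep-deprived mice, 4 of 9 against 14.7%. Among the 62 arrays 6 and 7 members passed, against 11.5% and 17.7%. Those added were Sgk1 and Cdkn1a over sleep, and Cdkn1a, Mt1 and Mt2 over deprivation. Over baseline and sleep, 4 of 9 had a slope against 5.44% of probe sets, and 4 of 9 without the 16 arrays against 6.15%. The slope over 12 h was 2.02 for Fkbp5, 2.31 for Zbtb16, 1.42 for Tsc22d3 and 0.82 for Klf9, with SEs of 0.28, 0.29, 0.17 and 0.09. These slopes lean on the step between runs, and with the runs as a block no member had a called slope.

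Steps that stay within runs, examined after the values were seen, went the same way in sleeping mice late in the day. From 9 to 12 h of sleep Fkbp5 rose by 0.95 within 1 run and by 1.27 within the other, without the 16 arrays by 1.43 and 2.04 with no overlap of the groups. Over both runs this step was 1.09 (SE 0.29, adjusted p = 0.095), and 1.69 without the 16 arrays (SE 0.16, adjusted p = 3.1e-11). For Zbtb16 it was 0.74, or 1.06 without them (adjusted p = 0.00024). Over this step limma called 0 of 9 members in the 78 arrays, with 5 at an unadjusted p under 0.05, against 0.0141% of probe sets higher. In the 62 arrays it called 5, all higher, against 1.6%. They were Fkbp5, Tsc22d3, Sgk1, Zbtb16 and Klf9. From 3 to 6 h of sleep Fkbp5 changed by 0.50 in 1 run and 0.0046 in the other, and neither Fkbp5 nor Zbtb16 passed. In deprived mice Fkbp5 was 0.35 higher at 6 h than at 3 h in the 78 arrays (SE 0.29, adjusted p = 0.68), and 0.75 higher in the 62 (SE 0.16, adjusted p = 0.0016).

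Deprived mice were also set beside mice killed 3 h later that had slept, a comparison chosen after the values were seen. Fkbp5 after 9 h awake differed from its level after 12 h of sleep by -0.05 (95% confidence interval -0.63 to 0.54), and by -0.35 (-0.65 to -0.04) without the 16 arrays. After 6 h awake it was 0.25 (-0.34 to 0.83) above its level after 9 h of sleep, and 0.98 (0.66 to 1.30, adjusted p = 1.2e-05) above it in the 62 arrays. Deprived mice of 6 h and sleeping mice of 9 h share no run, so this difference cannot be told apart from a difference between runs. After 3 h awake Fkbp5 was 0.49 (-0.14 to 1.11) above its level after 6 h of sleep, or 0.60 (0.27 to 0.93, adjusted p = 0.011). Tsc22d3 after 9 h awake differed by -0.23 (-0.59 to 0.12) from its level after 12 h of sleep, and by -0.42 (-0.63 to -0.22, adjusted p = 0.0025) in the 62 arrays. For Zbtb16 the difference was -0.11 (-0.74 to 0.52). Klf9 after 3 h awake was 0.02 (-0.22 to 0.25) from its level after 6 h of sleep, while Zbtb16 was 0.86 (0.19 to 1.53) above it. Cdkn1a after 3 h awake was 0.85 (0.50 to 1.20) above its level after 6 h of sleep (adjusted p = 0.00078).

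Cdkn1a encodes p21, an inhibitor of cyclin-dependent kinases that both p53 and the glucocorticoid receptor can induce. Its baseline levels ran from 10.59 through 10.85 to 11.10. In SS mice the lowest, median and highest levels were 10.03, 10.70 and 11.23 at 3 h and 9.88, 10.39 and 11.49 at 6 h. In SD mice they were 10.97, 11.38 and 11.56 at 3 h and 10.70, 11.25 and 11.62 at 6 h. Deprived mice sat above most sleeping mice, and the groups overlapped through a few mice of each.

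At 9 h Cdkn1a ran from 9.94 through 10.21 to 11.48 in SS mice and from 10.54 through 10.82 to 11.15 in SD mice. At 12 h the levels were 10.17, 10.66 and 10.82 against 10.10, 11.07 and 11.39. The low end of the SD mice at 12 h was array 81 alone, among the 16, and the next lowest was at 10.96. Over all hours Cdkn1a was 0.56 higher in SD mice (SE 0.09, adjusted p = 9.5e-06), or 0.69 without the 16 arrays. It passed at 3 h, with 0.60 (SE 0.16, adjusted p = 0.0091, lost when any of 13 single mice was left out), and not at 6, 9 or 12 h, with 0.79, 0.39 and 0.49. In the 62 arrays it passed at each of the 4 hours, with 0.51, 1.08, 0.64 and 0.60. In those 62 arrays Cdkn1a was also lower than baseline after 6 h of sleep (-0.55) and after 9 h (-0.65) and higher after 3 h of deprivation (0.51) and 6 h (0.53).

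Mt2 and Mt1 encode metallothioneins, small proteins that bind zinc and copper, and their genes lie next to each other. Mt2 ran from 11.23 through 11.40 to 11.85 in SS mice at 3 h and from 11.71 through 11.96 to 12.14 in SD mice, overlapping narrowly. Over all hours Mt2 was 0.28 higher in SD mice (SE 0.06, adjusted p = 0.0016), and 0.38 without the 16 arrays. By hour it was 0.47, 0.20, 0.14 and 0.31 higher, and it passed at 3 h (SE 0.13, adjusted p = 0.0080, lost when any of 11 single mice was left out). Mt1 did not follow it: its difference over all hours was -0.01 (95% confidence interval -0.14 to 0.11), and its medians stayed between 10.16 and 10.59. The difference between the 2 genes was not tested.

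Sgk1 encodes a kinase that raises sodium transport in epithelia, and Dusp1 a phosphatase that turns off stress kinases. Sgk1 was the steadiest member, with group medians between 9.73 and 9.99 and single mice between 9.53 and 10.05. Its difference over all hours was -0.03 (95% confidence interval -0.09 to 0.03). Dusp1 medians lay between 11.89 and 12.17, and its difference was 0.05 (-0.05 to 0.15). Once the 16 arrays were left out, Dusp1 was 0.35 above baseline after 12 h of deprivation (adjusted p = 0.0045), and Sgk1 was 0.16 below baseline after 9 h of it (log2 difference -0.16, adjusted p = 0.0077).

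At 3 h, 2 of 9 members were called against 6.11% of probe sets (Cdkn1a and Mt2), and 5 without the 16 arrays against 7.54%, adding Fkbp5, Tsc22d3 and Zbtb16. At 6 h limma called 0 of 9 against 0.0591%, with 5 at an unadjusted p under 0.05, and 5 without the 16 arrays against 2.51%. At 9 h it called 0 against 2.56%, with 3 at an unadjusted p under 0.05, and 4 without the 16 arrays against 5.98%. At 12 h it called 0 against 0.0816%, with 2 at an unadjusted p under 0.05, and only Cdkn1a without the 16 arrays against 0.442%.

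Whether the state difference changed from hour to hour was tested directly. In the 78 arrays 0 of 9 members passed limma's interaction test against 0.0562% of probe sets, with 2 at an unadjusted p under 0.05. Among the 62 arrays Fkbp5, Tsc22d3 and Zbtb16 passed (adjusted p = 0.0037, 0.0020 and 0.0071), 3 of 9 against 0.906%. In these 3 the difference was smallest at 12 h. Cdkn1a did not pass (adjusted p = 0.098).

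**Figure D3:**
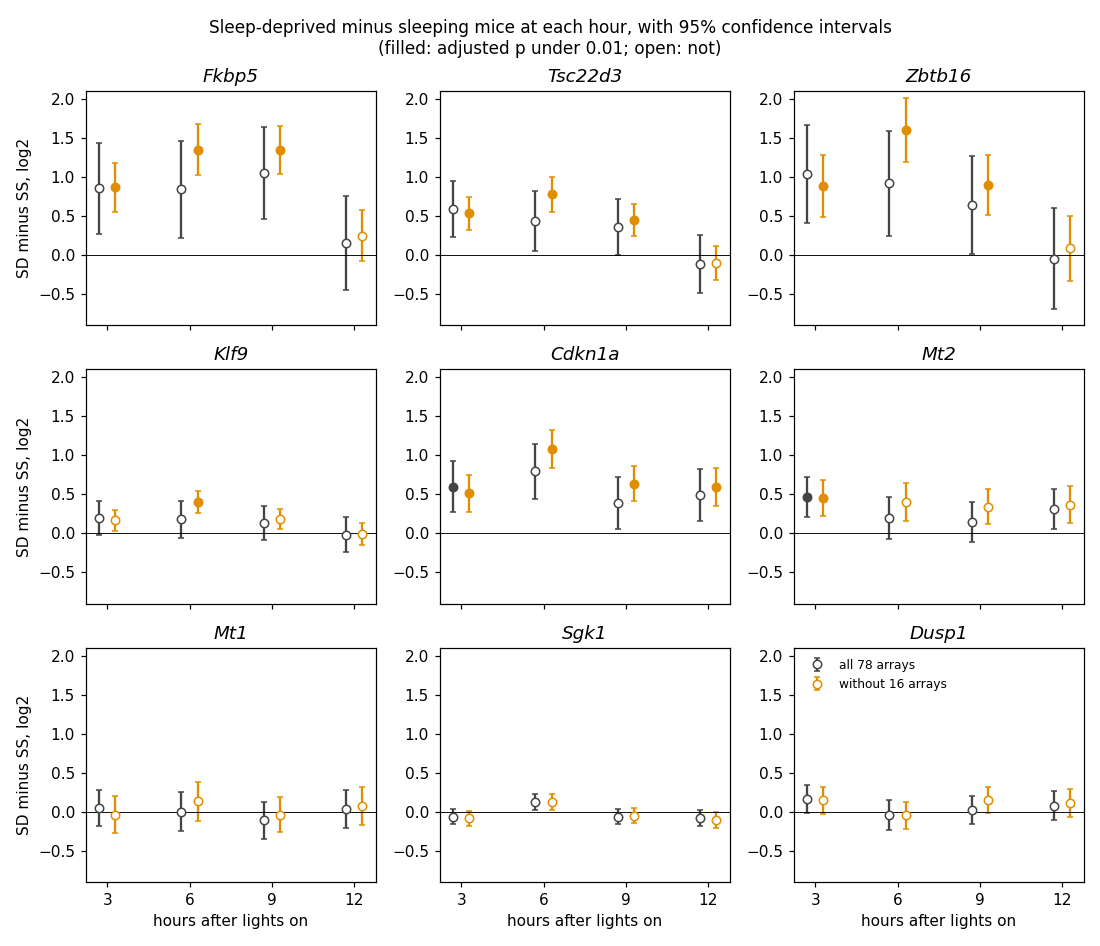
Sleep-deprived minus sleeping mice (y axis, log2) at each hour after lights on (x axis) for the 9 genes, with 95% confidence intervals, for 78 arrays (grey) and 62 arrays (orange), filled where the adjusted p was under 0.01. In the 62 arrays Fkbp5, Tsc22d3 and Zbtb16 stand above 0 at 3, 6 and 9 h and lie at 0.25, -0.11 and 0.08 at 12 h, while Cdkn1a stays at 0.51 to 1.08.

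Markers of other cells moved with the state. All 6 measured B cell markers of 7 listed were lower in SD mice over all hours, with a median difference of -0.66. Their mean level ran from 7.14 to 8.06 in SD mice at 3 h and from 8.49 to 9.19 in SS mice, and none was at 0. In whole lung, fewer B cells and less RNA per B cell cannot be told apart. With the mean B cell marker level as a covariate, Cdkn1a differed by 0.37 over all hours (adjusted p = 0.040) and Mt2 by 0.13 (adjusted p = 0.38), so both calls were lost, and Fkbp5 by -0.23 (adjusted p = 0.57). At 3 h the same covariate gave 0.04 for Cdkn1a and 0.21 for Mt2, and both calls were lost there too. At that hour the marker level did not overlap between the states, so the covariate could not be separated from state. The lost calls at 3 h therefore do not show whether Cdkn1a and Mt2 depend on B cell content. With that covariate and without the 16 arrays, Cdkn1a differed by 0.68 (adjusted p = 0.00089) and Mt2 by 0.38 (adjusted p = 0.0047), while Fkbp5 differed by -0.24 over all hours and by 1.09 at 6 h (adjusted p = 0.00021). At 3 h no member passed in that setting, where the same limit holds.

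Liver transcripts varied between lungs. The mean level of 9 measured liver markers of 10 listed ran from 6.37 to 7.76 in SD mice at 3 h and from 7.01 to 11.3 in SS mice. Their median difference at 3 h was -2.05, and none of the 9 was called. With them as a covariate Cdkn1a at 3 h was 0.47 (adjusted p = 0.059) and Mt2 0.50 (adjusted p = 0.011). The calls of both over all hours remained, at 0.54 and 0.28.

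The 250 bases before each RefSeq transcription start (GRCm38.p6) were searched on both strands for elements that bear on these genes. Of the 9 members 8 have an entry, with 16 starts among them, and the share holding each motif is given over all 32851 starts in the table. The full palindrome of the glucocorticoid response element, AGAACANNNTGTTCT, is held by 0.00913% of starts, and 1 of the 6 Sgk1 starts is among them, at chr10:21993640-21993889 on the plus strand. Sgk1 is shown because it carries this element and barely moved, with the palindrome in capitals.

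Sgk1: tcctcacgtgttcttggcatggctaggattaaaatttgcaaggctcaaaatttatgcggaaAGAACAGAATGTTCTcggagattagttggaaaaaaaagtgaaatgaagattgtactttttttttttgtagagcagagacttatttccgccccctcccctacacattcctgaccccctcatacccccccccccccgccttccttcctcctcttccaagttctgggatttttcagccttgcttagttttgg

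Fkbp5, one of the genes that rose most, has neither the palindrome nor its looser form, GNACANNNTGTNC, in this window. Zbtb16 is named only. The Fkbp5 window, chr17:28486150-28486399 on the minus strand, is shown for contrast with Sgk1, with its single E-box, CACGTG (6.02% of starts), in capitals. The looser form, which overlaps every palindrome, is held by 0.387% of starts. The right part of the palindrome alone, TGTTCT, is held by 16.1% of starts, and by 3 of the 6 Sgk1 starts and 1 of the 3 Tsc22d3 starts.

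Fkbp5: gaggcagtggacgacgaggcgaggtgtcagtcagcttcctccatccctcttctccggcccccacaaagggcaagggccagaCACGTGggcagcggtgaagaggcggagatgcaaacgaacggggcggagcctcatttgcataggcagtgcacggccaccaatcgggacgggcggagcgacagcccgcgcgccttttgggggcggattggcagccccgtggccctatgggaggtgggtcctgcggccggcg

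Mt1 holds the looser form 94 bases before its listed start, and Mt2 does not, although Mt2 was the one called between the states. Both windows are shown, Mt1 (chr8:94178839-94179088, plus strand) with the looser form in capitals. Mt2 (chr8:94172368-94172617, plus strand) has in capitals its 5 matches to TGCNCNC, a permissive pattern for the metal response element core. That pattern is short and occurs in 44.4% of starts, so a match need not be a metal response element. Mt1 holds 1 match. The Mt1 window reaches into the annotated gene, which starts at 94178883, while the Mt2 window ends just before its gene, which starts at 94172618. The windows lie at unlike places, so their matches cannot be set against each other.

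Mt1: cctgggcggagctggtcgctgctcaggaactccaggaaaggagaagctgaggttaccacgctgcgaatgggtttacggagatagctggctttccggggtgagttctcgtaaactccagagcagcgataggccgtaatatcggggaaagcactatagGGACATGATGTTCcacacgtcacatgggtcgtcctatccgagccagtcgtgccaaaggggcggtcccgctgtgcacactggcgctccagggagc

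Mt2: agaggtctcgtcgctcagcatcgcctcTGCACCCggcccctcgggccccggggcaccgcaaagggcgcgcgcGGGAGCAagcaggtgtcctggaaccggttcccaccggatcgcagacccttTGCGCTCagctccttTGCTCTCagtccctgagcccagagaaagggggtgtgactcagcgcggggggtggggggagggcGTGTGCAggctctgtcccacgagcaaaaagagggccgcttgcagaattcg

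Cdkn1a holds CATGNNNNNNCATG, the centres of a pair of p53 half-sites, 48 bases before 1 of its 2 starts (0.49% of starts). The window, chr17:29090729-29090978 on the plus strand, is shown because Cdkn1a was the member called most widely between the states, with the match in capitals. Dusp1 holds the cAMP response element TGACGTCA 143 bases before its start (1.55% of starts). Neither Klf9 nor any of the 3 Tsc22d3 starts holds the palindrome or its looser form. A match is letters in a window, and binding was not measured.

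Cdkn1a: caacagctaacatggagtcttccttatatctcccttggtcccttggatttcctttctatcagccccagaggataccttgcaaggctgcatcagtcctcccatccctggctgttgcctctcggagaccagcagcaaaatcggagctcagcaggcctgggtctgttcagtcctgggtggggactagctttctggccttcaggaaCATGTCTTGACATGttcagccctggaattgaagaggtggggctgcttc

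Across mice the 4 rising genes moved together within groups. After each group mean was taken out, their 6 pairs had Pearson's r from 0.80 to 0.90 and Spearman's rho from 0.66 to 0.83 over 78 mice, and r from 0.45 to 0.68 and rho from 0.40 to 0.65 over the 62 mice. Mice were permuted within groups (100000 permutations), and with Benjamini-Hochberg adjustment over all 36 pairs of members the largest adjusted p for r among the 6 was 2.8e-05, and 0.0059 in the 62 mice. Leaving out the 2 mice farthest from the median gave r from 0.71 to 0.85, and 0.39 to 0.65 in the 62. Within single runs r ran from 0.54 to 0.96.

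**Figure D4:**
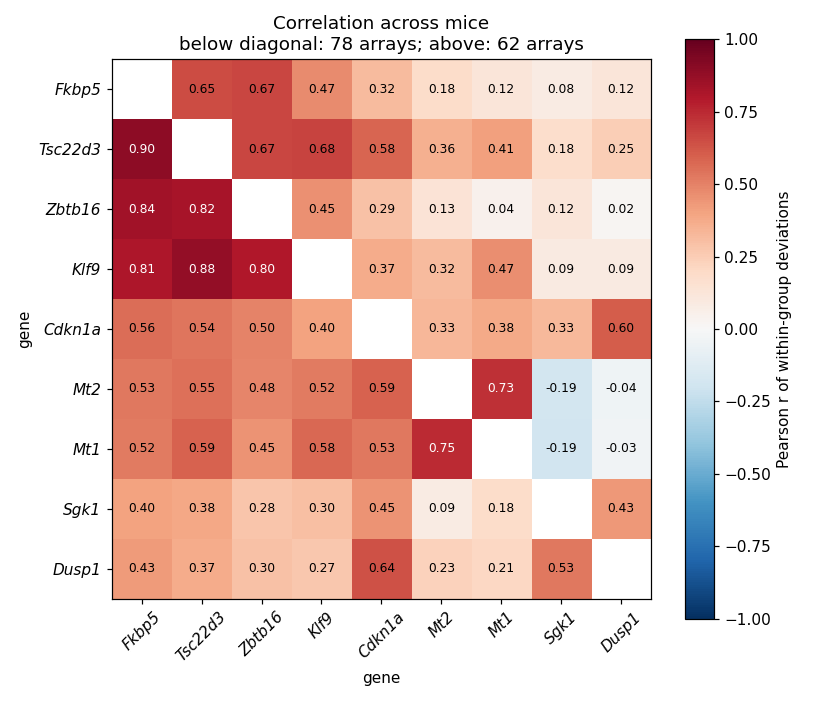
Pearson's r (colour and number) between the within-group deviations of each pair of the 9 genes (rows and columns), below the diagonal over 78 mice and above it over 62. The block of Fkbp5, Tsc22d3, Zbtb16 and Klf9 holds r from 0.80 to 0.90 below the diagonal and from 0.45 to 0.68 above it.

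Over the 36 pairs 30 passed an adjusted p of 0.01 in the 78 mice and 11 in the 62, all positive. Mt1 and Mt2 had an r of 0.75 (rho 0.68), and 0.73 (rho 0.66) without the 16 arrays, so they varied together between mice although their state differences were -0.01 and 0.28. Dusp1 was closest to Cdkn1a, at 0.64 (rho 0.57) and 0.60 (rho 0.55).

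By the same measure the gene most like Fkbp5 was Fam107a (r = 0.95 over 78 arrays, 0.75 over 62), followed by Map3k6 (0.92) and Hif3a (0.92). Tsc22d3 and Klf9 were most like Rgcc (0.93 and 0.89), Zbtb16 was most like Map3k6 (0.87) and Dusp1 most like Nr4a2 (0.72). Cdkn1a was nearest to Adamtsl4 (0.82), Mt1 to Klf13 (0.81), Mt2 to Pex11a (0.66) and Sgk1 to Gata2 (0.65). These likenesses share the same arrays and the 16 out of order, and are descriptions without a test.

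The receptor's own gene, Nr3c1, was called neither between the states nor over the hours of sleep or deprivation. Of 7 genes of the receptor and its hormone supply, 5 were called over the hours of deprivation, against 14.7% of all probe sets. Over the hours of sleep 2 were called, against 7.2%, and 3 had a rising slope, against 3.25%. In the 62 arrays these counts were 5, 3 and 2, against 17.7%, 11.5% and 3.39% of all probe sets. Abcb1b, a transporter that pumps steroids out of cells, was 0.65 above baseline after 12 h of deprivation (SE 0.11, adjusted p = 1.2e-05), and H6pd, which feeds cofactor to Hsd11b1, was 0.26 above it (adjusted p = 0.00049). Between the states over all hours, none was higher and 1 lower, against 2.7% of all probe sets higher and 2.89% lower. Nr3c1 differed by -0.02 (SE 0.03) and Hsd11b1, which regenerates active hormone inside cells, by 0.02. The lower one was Nr3c2, the mineralocorticoid receptor, at -0.21 (adjusted p = 0.00076), and it was also lower at 3 h (-0.30, adjusted p = 0.0019). From baseline to 12 h of sleep H6pd was called, 0.24 higher (adjusted p = 0.00067), and in the 62 arrays Nr3c2 and Hsd11b1 were called too (0.28 and 0.23).

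Chaperones of the receptor complex differed at 3 h. Of 11 measured (12 listed), 8 were higher in SD mice at 3 h, against 3.76% of all probe sets, and 8 over all hours, against 2.7%. None was lower, and the median difference was 0.43 at 3 h. Stip1, which links Hsp70 to Hsp90, was 0.96 higher at 3 h (SE 0.09, adjusted p = 5.1e-12). Hsp90aa1 was 0.76 higher and Fkbp4, the co-chaperone that Fkbp5 opposes, 0.69 higher (adjusted p = 4.1e-10 for both). At 6 h limma called 0 against 0.0591% of probe sets, with 4 at an unadjusted p under 0.05, and 5 in the 62 arrays against 2.51%. Of 9 coregulators limma called 0 over all hours, against 5.59% of probe sets, with 2 at an unadjusted p under 0.05. At 3 h it called 1, higher, against 6.11%, with 5 at an unadjusted p under 0.05. That one was the acetyltransferase Crebbp (0.15, adjusted p = 0.0073, and 0.12 with adjusted p = 0.018 in the 62 arrays). Over the hours of sleep 4 of the 9 were called, against 7.2% of probe sets, and over those of deprivation 4, against 14.7%.

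Of 29 other genes that glucocorticoids are known to induce, 19 were above baseline after 12 h of sleep and none below, with 2.5% of all probe sets above and 1.67% below. Their median was 0.51 against 0.0078 over all probe sets, and 17 had a rising slope, against 3.25% of probe sets. From 9 to 12 h of sleep, a step within runs, limma called 0 of the 29, with 18 at an unadjusted p under 0.05, against 0.0141% of probe sets higher, and in the 62 arrays 19 were higher and 1 lower, against 1.6% higher. Between the states 3 were higher and 1 lower over all hours, against 2.7% and 2.89% of probe sets. Without the 16 arrays the counts were 8 and 1, against 4.66% and 3.97%. Map3k6, a stress kinase, was 0.60 higher in SD mice (adjusted p = 0.0033) and Angptl4, an inhibitor of lipoprotein lipase, 0.57 higher (adjusted p = 0.00014). Rgs2, which damps G protein signals, was the one lower (-0.37, adjusted p = 3.7e-05).

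Of 16 inflammatory genes that glucocorticoids repress, 4 were below baseline after 12 h of sleep and none above (1.67% of all probe sets were below), among them the protease Mmp9 (-0.85, adjusted p = 0.00045). Between the states 2 were higher, against 2.7% of probe sets, and 1 lower, against 2.89%, the chemokine Ccl5 (-0.42). One of the higher ones was Cxcl2, whose group means of 3.87 to 4.41 lie below every array's median and were not shown to be above background. Markers of immune cells also moved. The mean level of the neutrophil markers had a median of 8.06 over baseline mice and 7.38 over mice that slept 12 h. Between the states the T cell and NK cell markers had median differences of -0.36 and -0.37. Whether the changes in the inflammatory genes follow the content of such cells was not tested. Of 7 sodium and water transport genes near Sgk1 in function, 1 was higher between the states, against 2.7% of probe sets. It was Nedd4l (0.13), a ubiquitin ligase that Sgk1 inhibits.

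Lists around the other members were compared over all hours, where 5.59% of all probe sets were called, 2.7% higher and 2.89% lower. Of 14 measured p53 targets, 2 were higher and none lower, the death receptor Fas (0.31) and cyclin G1, Ccng1 (0.12). Of 8 zinc and metal genes, 1 was higher, Gclc (0.19), and 1 lower, the zinc importer Slc39a8 (-0.10). Of 15 immediate early genes none was higher and 2 were lower, the transcription factor Egr1 (-0.38) and the phosphatase Dusp2 (-0.22), a dim probe set not shown to be above background. Of 18 relatives of the members, 1 was higher, Dusp16 (0.10).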

How the data were processed

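Lung RNA was hybridized to Affymetrix Mouse Gene 1.0 ST arrays. Per the labels and the study's methods, the authors normalized and summarized the probes by robust multi-array averaging (RMA), for lung apart from other tissue. The deposited values, on a log2 scale, lack their decimal point, which was restored, giving 2.27 to 13.85, and were used with no further normalization. Precision is limited by how many mice each group holds, since arrays carry no depth. Of 35556 probe sets 21218 name 1 gene, 1881 several and 12457 none. Groups were compared in limma 3.58.1 (R 4.3.3), with Benjamini-Hochberg adjustment over all probe sets and a threshold of 0.01. The comparison over all hours left out baseline mice and had no term for hour, and the others came from 1 fit of all 9 groups, except the slope. Replicates are single mice. The code for the limma comparisons was first tested on simulated data. Members and lists were chosen with earlier results of these data known, as was the set of 16 arrays. Named genes are all members, the receptor list, at most 4 called genes of each other list and the 3 genes most like each member. Correlations used scipy 1.17.1. Alternatives were blocks of 4 or 5 runs, other scalings, a filter at a mean of 6, array weights, another prior, marker covariates, all probe sets of a gene, hour as a factor and leaving out arrays. Other marker lists checked were lung epithelium, endothelium, T cells, NK cells, neutrophils, macrophages, heart muscle, fat and thymus. Over all hours, 1 of 8 measured lung epithelium genes and 1 of 5 endothelium genes were called between the states. For T cells it was 2 of 6, for NK cells 3 of 5, for neutrophils 1 of 6 and for macrophages 1 of 5. None of 4 heart muscle, 4 fat or 4 thymus genes was called, and 5.59% of all probe sets were. The epithelial and endothelial genes were higher and all T cell, NK cell, neutrophil and macrophage genes called were lower. The promoter table was searched with Python, and figures were drawn in matplotlib 3.10.9.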

Additional observations from a re-analysis of the deposited data

Results flagged for a closer look

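In 11 of 81 sets of 1 member in 1 group, the most extreme mouse stood apart from the next by more than Dixon's limit, and chance gives about 1 in 20 such sets. The baseline mouse with array 36 was high in Fkbp5 (10.1), Tsc22d3 (10.8) and Klf9 (11.5). The SD 12 h mouse with array 81 was low in Fkbp5 (7.99), Tsc22d3 (9.49), Zbtb16 (10.4), Klf9 (11.02) and Cdkn1a (10.1). Both belong to the 16 arrays out of order. The SS 3 h mouse with array 78, also of the 16, was low in Dusp1 (11.5), and the SD 6 h mouse with array 51, again of the 16, was low in Mt2 (10.9). The baseline mouse with array 39, which is not among them, was high in Mt2 (12.2).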

How the results depend on the processing

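Over 14 other settings, 594 differences of single members were recomputed: 532 kept their side of the threshold, 50 newly passed and 12 no longer passed. Of the 532, 45 changed sign, each past the threshold in neither setting, and no called difference reversed. Counts of members called moved as follows, and the cause was not tested. Without the 16 arrays they were 4 over all hours, 5, 5, 4 and 1 at 3, 6, 9 and 12 h, 3 for the change over hours, 36 baseline pairs and 7 over hours of deprivation. With 4 runs as a block they were 4 over all hours, 1 at 6 h and 0 slopes, and with 5 runs 0 at 3 h and 0 slopes. Centring arrays on their median left 1 at 3 h. Array weights gave 5, 1, 2 and 1 at the 4 hours, 31 pairs and 8 over hours of deprivation. Hour as a factor gave 5 over all hours. Liver markers as a covariate gave 0 at 3 h, and B cell markers 0 over all hours and 0 at 3 h. The B cell marker level did not overlap between the states at 3 h, so it could not be separated from state there. Chosen after seeing the data, 4 runs without the 16 arrays gave 5 over all hours, 5, 5, 4 and 1 by hour, 3 for the change over hours and 31 pairs, and B cell markers without the 16 arrays gave 0 at 3 h, 4 at 6 h, 1 for the change over hours and 28 pairs. Leaving out each mouse gave 0 to 2 at 3 h, 0 to 1 at 6 h (Cdkn1a passed without array 51 or 66) and 0 to 1 at 9 h (Fkbp5 passed without array 10 or 28), and Zbtb16 passed over all hours without array 51 (0.66). No paired analysis was possible because each mouse has a number of its own, shared with no mouse of another group.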
